A study of Homo sapiens with 12 samples.

Results

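The response of wild-type (WT) HepaRG cells to CITCO was measured by RNA sequencing as the difference between 2 WT libraries treated with CITCO and 2 WT libraries treated with the solvent DMSO. All loci with at least 1 CPM (the authors' depth-scaled read count) in at least 2 of the study's 12 libraries were included, which gave 15792 of the 15822 loci in the table. HepaRG is an established human hepatoma line that differentiates in culture towards hepatocyte-like and biliary-like cells, and CITCO is a synthetic agonist of the human constitutive androstane receptor (CAR, gene NR1I3). The groups compared here were WT with CITCO, WT with DMSO and WT with phenobarbital (PB, a drug long used as an inducer of liver enzymes). They also included hCAR-KO cells (KO, a HepaRG line labelled as a CAR knockout) with CITCO and with DMSO, with 2 libraries in each group. The 2 libraries of KO with PB entered the filter on loci and the estimate of spread shared by all 12 libraries, and were not compared. The sources used here give neither dose nor length of treatment, nor how NR1I3 was edited, nor whether the KO cells were 1 clone. No label ties the duplicates to separate cultures, and each p-value therefore measures how far duplicate libraries lie apart, a spread that may be only technical.

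CAR is a nuclear receptor of hepatocytes. Once activated it moves to the nucleus, pairs with the retinoid X receptor and binds enhancers of genes for drug oxidation, conjugation and export, many of which it shares with the pregnane X receptor (PXR, gene NR1I2). Other sensors of foreign compounds act beside it. The aryl hydrocarbon receptor (AhR) turns on the CYP1A genes, and NRF2 turns on genes that detoxify electrophiles and supply NADPH and glutathione.

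WT CITCO libraries held 59341782 and 65045025 reads, and WT DMSO libraries 49258123 and 52101507 reads. The other libraries held 54917960 to 66453415 reads. Duplicates differed by more than sampling noise in every group, with a mean chi-square per locus of 4.15 for WT CITCO and 8.30 for WT DMSO. The transcript of the knocked-out gene, NR1I3, was at 9.70 and 9.33 CPM in WT CITCO and at 11.5 and 12 CPM in WT DMSO libraries. In KO cells NR1I3 was at 9.63 and 10.7 CPM with CITCO and at 11 and 10.6 CPM with DMSO. The level of this transcript checks nothing about the genotype, because the position of the edit is not given.

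CITCO changed 348 loci in WT cells at an adjusted p under 0.05 (limma, Benjamini-Hochberg adjustment over all loci), which is 2.2% of those tested. Of these, 187 rose (1.18%) and 161 fell (1.02%), and at an unadjusted p under 0.05 the count was 2578. Changes were small on the log2 scale of the limma fit, which understates changes of low genes. On that scale 11 called loci rose at least 2-fold and none fell as much. With a limit of 1.5-fold on it, 44 rose and 19 fell. By the ratio of mean CPM, IFI44L, a low interferon response gene called lower, fell to 0.477 of its DMSO level (log2 -0.82 in the fit). Called rises had a median log2 change of 0.38 and called falls one of -0.27. When each library was scaled to its own total, 250 loci rose and 100 fell. The count was 109 without WT CITCO 1, 136 without WT CITCO 2, 168 without WT DMSO 1 and 992 without WT DMSO 2, so it depended on single libraries. The plot of change against level shows a few drug metabolism genes far above the rest and called falls that stay within 1 log2 unit.

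**Figure D1:**
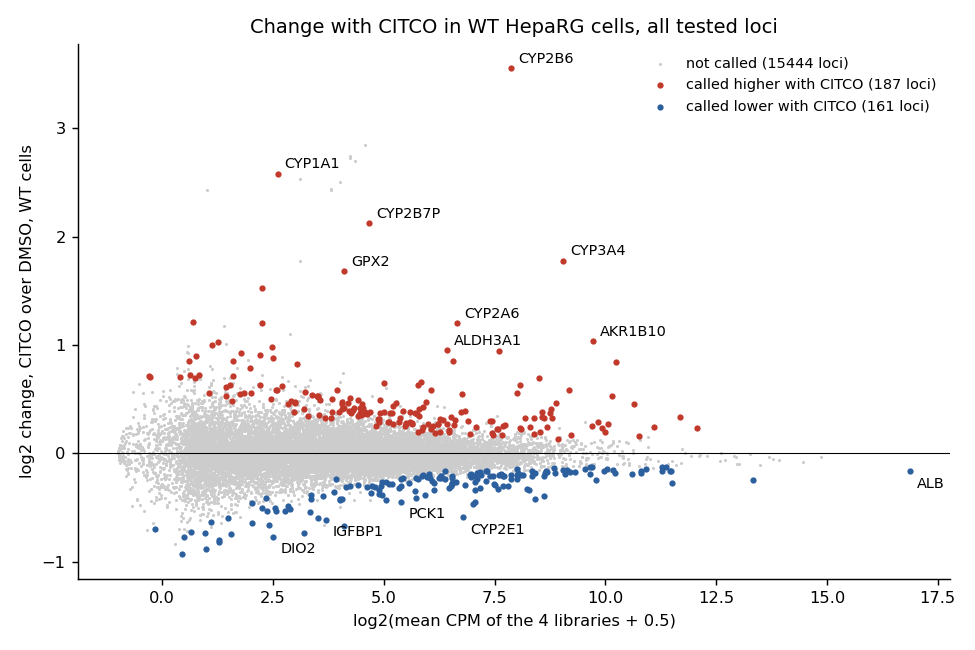
The log2 change of CITCO over DMSO in WT cells (vertical axis) for 15792 loci, against the log2 of the mean CPM of the 4 libraries plus 0.5 (horizontal axis). Red points are the 187 loci called higher, blue points the 161 called lower and grey points loci that were not called; CYP2B6 at 3.55 has the largest called change.

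The cytochromes P450 (drug-oxidising enzymes) that CAR and PXR are known to induce carried the largest changes. CYP2B6, the classical CAR target, was at 435 and 424 CPM in WT CITCO and at 35.2 and 37.1 CPM in WT DMSO libraries. Its level was 11.9-fold higher with CITCO (log2 3.55, SE 0.058, limma adjusted p = 1.21e-17). CYP3A4, which oxidises more drugs than any other P450, was at 818 and 807 CPM with CITCO and at 242 and 232 CPM with DMSO (log2 1.78, SE 0.035, adjusted p = 1.36e-16). For both genes each CITCO library lay far above each DMSO library, and the duplicates lay close together. CYP2A6, the main nicotine oxidase, was at 137 and 142 CPM with CITCO and at 59.1 and 61.8 CPM with DMSO (log2 1.2, adjusted p = 7.17e-12).

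Of 13 tested members of this list, which also held the electron donor POR and the heme enzyme ALAS1, 10 rose and none fell, against 1.18% of all loci that rose. The median log2 change of the list was 0.85, and of all loci -0.01. CYP2C8 rose by 0.94, CYP3A7, the fetal form of CYP3A, by 0.85 and CYP2C18 by 0.55 on the log2 scale. POR, the reductase that feeds electrons to microsomal P450 enzymes, rose by 0.55 to 304 and 308 CPM with CITCO, against 202 and 215 CPM with DMSO. CYP3A43 rose by 1.00 but was low, at 2.98 and 1.87 CPM with CITCO and 0.937 and 0.944 CPM with DMSO, and it was not called without WT CITCO 1.

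Members that did not pass were CYP2A13 (log2 0.51, adjusted p = 0.0668), CYP3A5 (0.16, adjusted p = 0.0537) and ALAS1 (0.15, adjusted p = 0.175), although their CITCO libraries also lay above their DMSO libraries. CYP2B7P, a pseudogene next to CYP2B6, rose by 2.12, with 42.0 and 39.5 CPM in WT CITCO and 9.86 and 8.16 CPM in WT DMSO libraries. CYP2B6 and CYP2B7P are near-identical in sequence, so reads may have been split between them in the authors' counting. The count of 10 was 9 to 11 under every alternative tried.

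**Figure D2:**
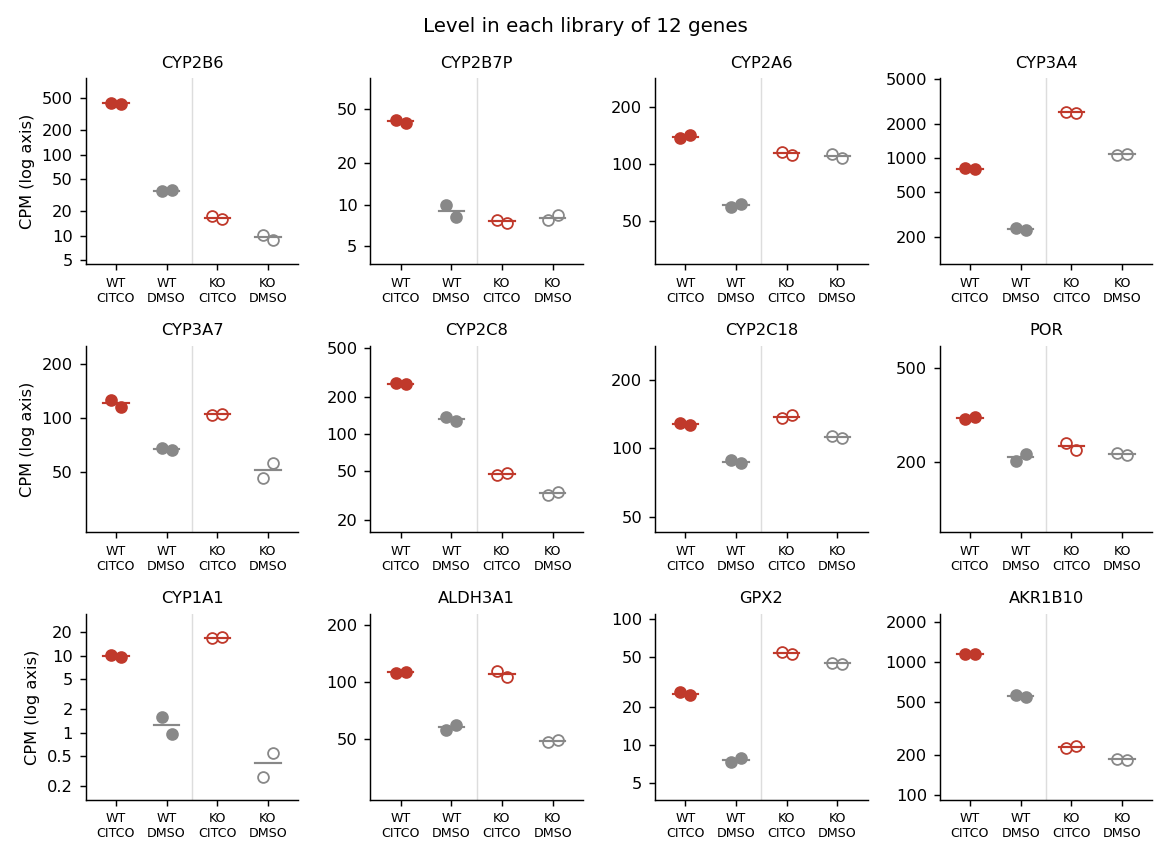
Level of 12 genes in each library in CPM (vertical axis, log scale), with WT cells as filled and KO cells as open points, CITCO in red and DMSO in grey; lines mark the mean of 2 libraries. In WT cells the 2 CITCO points lie above the 2 DMSO points for every gene shown, while in KO cells CYP2B7P and CYP2A6 stay near their DMSO level.

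Of 20 further P450 genes, which serve steroid, fatty acid and bile acid oxidation, 2 rose and 1 fell. CYP2E1, which oxidises ethanol and acetaminophen, fell by 0.59 on the log2 scale (adjusted p = 0.000116), with 88.0 and 87.4 CPM in WT CITCO and 133 and 132 CPM in WT DMSO libraries. CYP4F11, a fatty acid hydroxylase, rose by 0.22, and CYP19A1, the aromatase that makes estrogens, rose by 0.63 from a low level. CYP19A1 lost its call without WT CITCO 1, WT CITCO 2 or WT DMSO 1, and CYP4F11 without either CITCO library. CYP7A1, which starts bile acid synthesis, was at 65.0 and 62.2 CPM with CITCO and at 78.5 and 68.9 CPM with DMSO and was not called (log2 -0.21, adjusted p = 0.132).

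Of 5 tested AhR targets 3 rose and none fell, with a median log2 change of 0.95. CYP1A1, which oxidises aromatic hydrocarbons, was at 10.2 and 9.57 CPM in WT CITCO and at 1.58 and 0.944 CPM in WT DMSO libraries (log2 2.58, SE 0.221, adjusted p = 9.01e-07). ALDH3A1, an aldehyde dehydrogenase, was at 111 and 113 CPM with CITCO and at 56.1 and 59.6 CPM with DMSO (log2 0.95, adjusted p = 5.78e-09). Both genes stayed called under every alternative tried. CYP1A2, the caffeine oxidase, rose by 1.03 from about 1 CPM but lost the call under 9 alternatives, among them leaving out WT CITCO 1, WT CITCO 2 or WT DMSO 1. NQO1, a quinone reductase at a low level (0.18), and TIPARP, a repressor of AhR (-0.15), were not called.

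The stretch of the CYP1A1 promoter that holds the core letters bound by AhR and its partner ARNT is shown because CYP1A1 had the largest called change after CYP2B6. It lies at chr15:74725556-74725610 of GRCh38.p14 on the minus strand, written in the direction of the gene, from RefSeq. Capitals mark the letters GCGTG, whose first base is 57 bases before the annotated start:
CYP1A1: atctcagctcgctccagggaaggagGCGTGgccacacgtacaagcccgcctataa
On either strand these letters occurred in 31.9% of all 27305 promoters in the RefSeq table, searched over the 250 bases before each start, so they are common.

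Conjugating (phase II) enzymes rose in part. Of 31 tested, 11 rose and none fell, and the median log2 change was 0.11. EPHX1, which opens epoxides, rose by 0.52 (adjusted p = 1.13e-08) and UGT2B4, a glucuronosyltransferase for bile acids and steroids, by 0.59 (adjusted p = 7.07e-08). UGT2B4 was at 698 and 695 CPM in WT CITCO and at 483 and 444 CPM in WT DMSO libraries. UGDH, which makes the glucuronic acid donor, rose by 0.33, the steroid sulfotransferase SULT2A1 by 0.32 and the locus named UGT1A1 by 0.29. The UGT1A genes overlap, so that locus may hold reads of several of them, and SULT1A1 and SULT1A2 (0.31 and 0.50) are close copies that may share reads. Of the glutathione transferases in the list GSTO1 was called (0.19), and GSTA1 (0.11) was not, both named here outside the rule. The count of 11 was 5 without WT CITCO 1, 7 without WT CITCO 2, 8 without WT DMSO 1 and 9 without WT DMSO 2.

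Of 17 efflux transporters 3 rose and 1 fell, and none of 10 uptake carriers was called, where 2.2% of all loci were. ABCC2, which exports conjugates into bile, was at 410.1 and 434 CPM in WT CITCO and at 344 and 325 CPM in WT DMSO libraries (log2 0.34, adjusted p = 7.24e-05). ABCB11, the bile salt export pump, rose by 0.45 and SLC47A1, an exporter of organic cations, by 0.22. ABCB4, which exports phospholipid, fell by 0.22 on the log2 scale and was not called without WT CITCO 1 or WT DMSO 1. ABCB1, the multidrug exporter, named here for its known link to PXR, was not called (0.08, adjusted p = 0.374).

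Most NRF2 targets rose. Of 25 tested members 19 rose and none fell, all 25 had a positive change, and the median log2 change was 0.33. GPX2, a glutathione peroxidase, was at 26.4 and 24.8 CPM in WT CITCO and at 7.36 and 7.95 CPM in WT DMSO libraries, 3.35-fold higher (log2 1.68, SE 0.063, adjusted p = 5.17e-12). AKR1B10, an aldo-keto reductase of reactive aldehydes and retinal, was at 1132 and 1139 CPM with CITCO and at 563 and 545 CPM with DMSO (log2 1.03, adjusted p = 6.13e-13). In both genes CITCO libraries were at least 2 times as high as either DMSO library. AKR1B15, the neighbouring copy of AKR1B10 in a list of reductases, of which 5 of 15 rose and none fell, was at 5.80 and 7.33 CPM with CITCO and at 1.65 and 2.26 CPM with DMSO (log2 1.53, adjusted p = 0.000953).

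Other members of the group have defined jobs in the same defence. SRXN1, which repairs oxidised peroxiredoxins, rose by 0.59 to 79.4 and 80.3 CPM, against 54.3 and 51.8 CPM with DMSO. Of members that encode enzymes of the pentose phosphate pathway, TKT rose by 0.33, PGD, which makes NADPH, by 0.30, and TALDO1 by 0.30, and TALDO1 was not called without WT CITCO 1 or WT DMSO 1. Iron storage genes FTL (0.34) and FTH1 (0.16), the thioredoxin pair TXN (0.22) and TXNRD1 (0.20), the glutathione synthesis subunit GCLM (0.27) and the cystine importer SLC7A11 (0.47) also rose. Apart from FTL, each of these lost the call with a constant prior variance and in a fit of the 4 compared libraries. The reductases AKR1C2 (0.85) and AKR1C1 (0.46) rose, but they are close copies of each other and may share reads. Not called were SLC48A1, NQO1, GSR, GCLC, PRDX1 and HMOX1, with log2 changes of 0.33, 0.18, 0.12, 0.10, 0.09 and 0.05. NQO1 was a low locus, left out by the filter at a mean of 5 CPM (limma adjusted p = 0.739). Its value does not show that it failed to respond. HMOX1, which degrades heme, was at 19.7 and 19.4 CPM in WT CITCO and at 19.5 and 18.3 CPM in WT DMSO libraries. The count of 19 was 11 without WT CITCO 1, 13 without WT CITCO 2, 16 without WT DMSO 1 and 17 without WT DMSO 2. It was 11 in a fit of the 4 compared libraries and 10 with a constant prior variance.

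The promoter letters TGACNNNGC, the core of the antioxidant response element that NRF2 binds, were searched on both strands. They can overlap the AP-1 site TGACTCA. RefSeq promoters were at hand for 17 of the 25 members, and 68.0% is too few to compare shares, whereas 11% of all 27305 promoters held these letters. The 5 members that held them (GPX2, GCLM, TXNRD1, CBR1 and PGD) all rose, as did most other members, and their stretches are shown because they carry these letters in genes that rose. Each is written in the direction of its gene (GRCh38.p14), with the matched letters in capitals, read on the other strand in all but TXNRD1. They lie at chr14:64942834-64942892 (minus strand), chr1:93909431-93909489 (minus), chr12:104215655-104215713 (plus), chr21:36069840-36069898 (plus) and chr1:10398838-10398896 (plus).
GPX2: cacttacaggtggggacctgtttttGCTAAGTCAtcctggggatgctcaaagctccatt
GCLM: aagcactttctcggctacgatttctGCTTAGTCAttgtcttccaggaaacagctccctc
TXNRD1: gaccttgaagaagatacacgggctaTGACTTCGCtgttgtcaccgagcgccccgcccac
CBR1: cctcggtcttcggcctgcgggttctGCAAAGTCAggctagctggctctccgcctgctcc
PGD: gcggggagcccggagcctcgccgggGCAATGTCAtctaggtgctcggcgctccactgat
The first matched base lay 122 bases before the annotated start in GPX2, 34 in GCLM, 99 in TXNRD1, 159 in CBR1 and 201 in PGD. A match of letters is a description and not evidence of binding.

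**Figure D3:**
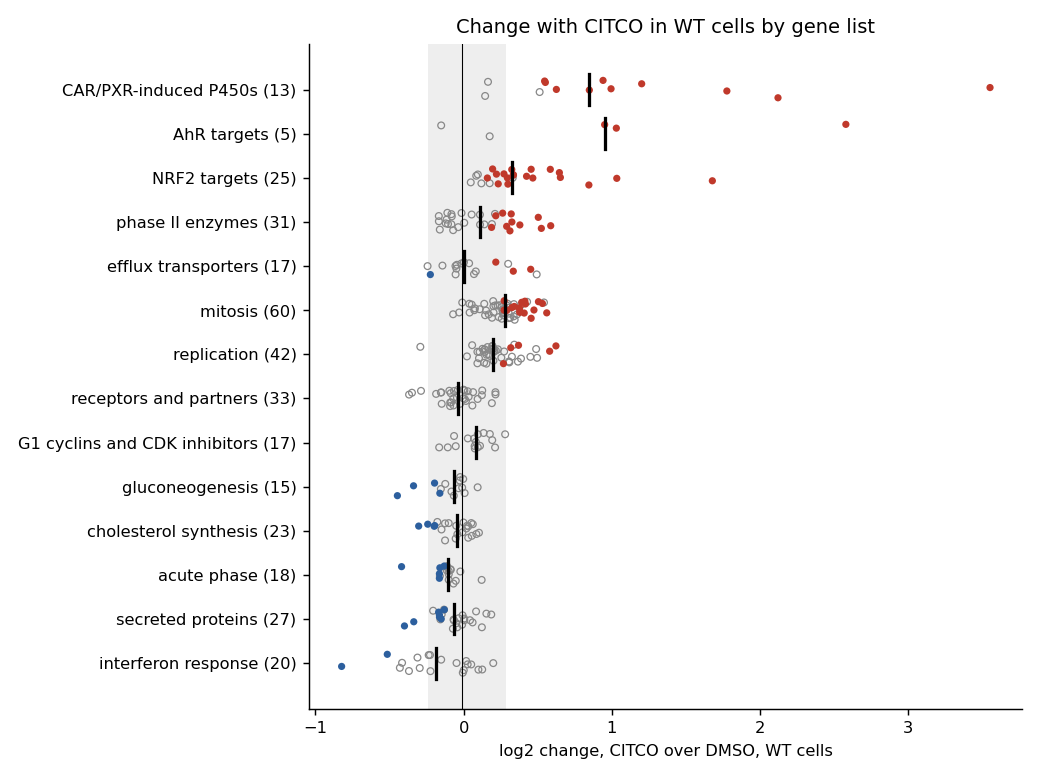
The log2 change of CITCO over DMSO in WT cells (horizontal axis) for the tested members of 14 gene lists, with the number of loci beside each name. Filled points were called (red higher, blue lower), open points were not, short black bars are list medians, and the grey band holds the central 90% of all loci; the P450, AhR and NRF2 lists extend furthest to the right.

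Genes of cell division were higher with CITCO by a small amount. Of 60 tested genes of mitosis 18 rose and none fell. Changes were positive for 57 of the 60, and in 51 the CITCO libraries lay above both DMSO libraries, as they did for 21.5% of all loci. The median log2 change was 0.28. CCNB1, the cyclin that drives entry into mitosis, was at 21.6 and 21.8 CPM in WT CITCO and at 14.2 and 16.1 CPM in WT DMSO libraries (log2 0.51, adjusted p = 0.000774). MKI67, the usual marker of cycling cells, was at 60.6 and 61.8 CPM with CITCO and at 50 and 46.5 CPM with DMSO (log2 0.34, adjusted p = 0.000461). PRC1, a bundler of spindle microtubules, rose by 0.42, the mitotic kinase CDK1 by 0.38 and the topoisomerase TOP2A by 0.27.

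Of 42 replication genes 5 rose and none fell, 41 had a positive change, and the median was 0.20. E2F1, a transcription factor of the G1 to S transition, rose by 0.62, UHRF1, which keeps DNA methylation through replication, by 0.58, and the helicase subunits MCM5 and MCM2 by 0.37 and 0.32. None of 17 G1 cyclins and cyclin-dependent kinase inhibitors was called, including CCND1 (0.03) and CDKN1A (0.07), where 2.2% of all loci were called. At that share, no call among 17 loci does not show that they were unchanged, and 13 had a positive change. These counts rest on few libraries. The mitosis count of 18 was 6 without WT CITCO 1, 5 without WT CITCO 2, 16 without WT DMSO 1 and 18 without WT DMSO 2, and the replication count of 5 was 2, 1, 3 and 6. In a limma fit of the 4 compared libraries both counts were 0, against 42 and 22 genes with an unadjusted p under 0.05 in the fit of all libraries, and edgeR called 5 and 2.

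Summed over the list, mitosis transcripts came to 948 and 957 CPM in WT CITCO and to 799 and 766 CPM in WT DMSO libraries. KO cells with CITCO held 1919 and 1980.1 CPM, and KO cells with DMSO 1616 and 1611 CPM, so the sums did not overlap in either genotype. In KO cells 6 mitosis genes rose, MKI67, CDK1 and TOP2A among them, against 0.386% of all loci that rose there. None of the 60 mitosis and 42 replication genes had a called difference between the WT and the KO response, against 0.336% of all loci, and 6 mitosis genes had an unadjusted p under 0.05.

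**Figure D4:**
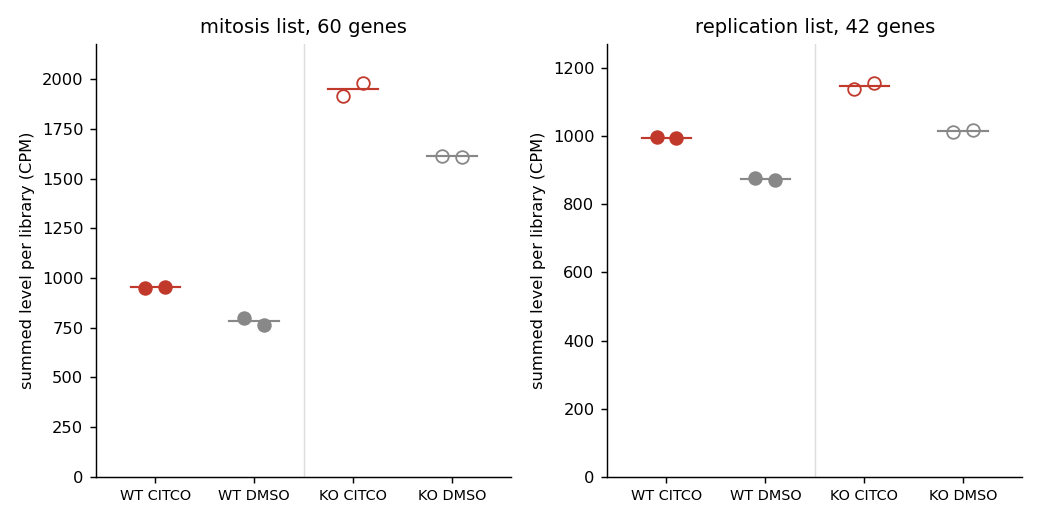
Summed level in CPM (vertical axis, from 0) of the 60 mitosis genes (left) and the 42 replication genes (right) in each library of the WT and KO cells with CITCO (red) or DMSO (grey); lines mark means of 2 libraries. In both genotypes the 2 CITCO libraries lie above the 2 DMSO libraries.

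Promoters of mitosis genes often hold the cell cycle genes homology region, and the letters TTTGAA were searched for it on both strands. They occurred in 42.3% of the 52 mitosis promoters in the RefSeq table, in 2.78% of the 36 replication promoters and in 13.6% of all 27305. CCAAT, the box bound by NF-Y, occurred in 67.3%, 47.2% and 33.0%. The lists were chosen by function and the letters are known from such genes, so these shares describe the lists and not the response. Stretches of 3 genes that rose, of which BUB1B, a spindle checkpoint kinase (log2 0.38), was added for its promoter, are shown to point out the letters (GRCh38.p14, gene direction, with 1 match in capitals in each), at chr10:128126440-128126495 on the minus strand, chr15:90994536-90994580 on the minus strand and chr15:40161021-40161068 on the plus strand:
MKI67: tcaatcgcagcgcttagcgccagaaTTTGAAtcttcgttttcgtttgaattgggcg
PRC1: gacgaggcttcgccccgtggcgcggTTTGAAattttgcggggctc
BUB1B: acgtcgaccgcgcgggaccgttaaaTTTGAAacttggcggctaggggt
The first base in capitals lay 47 bases before the annotated start in MKI67, 20 in PRC1 and 23 in BUB1B, and MKI67 held a second match, left in lower case, that began 29 bases before the start.

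Genes that fell with CITCO included several of glucose and lipid metabolism, each by less than 1 log2 unit. Of 15 tested genes of gluconeogenesis 4 fell and none rose, against 1.02% of all loci that fell, with a median of -0.07. PCK1, which commits carbon to glucose synthesis, was at 37.0 and 33.3 CPM in WT CITCO and at 49.3 and 46.7 CPM in WT DMSO libraries (log2 -0.45, adjusted p = 0.000953). G6PC, which releases free glucose, was at 60.1 and 62.4 CPM with CITCO and at 77.4 and 77.8 CPM with DMSO (log2 -0.34, adjusted p = 0.000337). LDHA, which interconverts lactate and pyruvate, fell by 0.16 on the log2 scale.

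Neighbouring steps moved the same way in part. Of 21 genes of glycogen and glycolysis 3 fell, LDHA among them, and none rose, and the count was 1 without WT CITCO 1, 1 without WT CITCO 2 and 5 without WT DMSO 2. PFKFB4, a regulator of glycolysis, fell by 0.53 on the log2 scale. IGFBP1, a binding protein of insulin-like growth factors that insulin represses, was at 9.93 and 9.44 CPM in WT CITCO and at 14.5 and 15.8 CPM in WT DMSO libraries (log2 -0.62, adjusted p = 0.000412).

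In lipid metabolism 3 of 15 genes of fatty acid synthesis fell, the desaturase SCD by 0.28 on the log2 scale (adjusted p = 2.56e-05), and 4 of 23 of cholesterol synthesis, with the desaturase SC5D at -0.30. Neither list held a gene that rose. Of 23 genes of fatty acid oxidation 1 rose and 2 fell, and of 19 of bile acid synthesis 2 fell, with BAAT, which conjugates bile acids, at -0.24. Without WT CITCO 1, WT CITCO 2 or WT DMSO 1, the count of 4 for gluconeogenesis was 3, and that of 3 for fatty acid synthesis was 1, with SCD the one left. The cholesterol count of 4 was 1 without WT CITCO 1, 1 without WT CITCO 2, 2 without WT DMSO 1 and 6 without WT DMSO 2. For fatty acid oxidation no call was left without WT CITCO 1, WT CITCO 2 or WT DMSO 1, and for bile acid synthesis 1 was left in each.

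Some genes of secreted liver proteins fell. Of 27 tested 7 fell, none rose and 8 had a positive change, with a median of -0.07, and of 18 acute phase genes 5 fell and none rose, with a median of -0.11. AHSG, which encodes fetuin-A, was at 337 and 336 CPM in WT CITCO and at 439 and 449 CPM in WT DMSO libraries (log2 -0.40, adjusted p = 7.3e-06). Albumin (ALB) fell by 0.17 on the log2 scale, to 113477 and 113538 CPM with CITCO, against 129931 and 125205 CPM with DMSO. In such bulk libraries, fewer hepatocyte-like cells and less of these transcripts per cell cannot be told apart. The secreted count of 7 was 2 without WT CITCO 1, WT CITCO 2 or WT DMSO 1 each, and the acute phase count of 5 was 0 in each of these.

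Cell type markers were read beside these lists. Of 9 tested hepatocyte markers 4 fell, ALB and FGB among them, while 4 had a positive change, and the median was -0.05. The summed level of the list was 136794 and 136712 CPM in WT CITCO and 154135 and 149649 CPM in WT DMSO libraries. Most of this sum is ALB, so it mainly follows that 1 transcript. The count of 4 was 2 without WT CITCO 1, WT CITCO 2 or WT DMSO 1, when ALB and FGB lost their calls. Of 8 biliary and progenitor markers 1 rose, the secreted phosphoprotein SPP1 (0.59), and their sums overlapped at 655 and 659 CPM with CITCO and 616 and 660.2 CPM with DMSO. Of 15 mesenchymal and matrix genes 2 fell, the matrix protein gene POSTN (-0.42, not called without WT CITCO 1 or WT DMSO 1) among them, with sums of 8200.4 and 8235 CPM with CITCO and 8621 and 8203 CPM with DMSO. Of 8 immune markers 2 were among the tested loci, ITGAM (0.43, not called) and CD14, which rose by 0.50 but was not called without WT CITCO 1 or WT DMSO 1, while PTPRC, CD68 and MARCO were not among them. Their sum was 11.4 and 10.5 CPM with CITCO and 7.49 and 7.74 CPM with DMSO. Of 7 endothelial markers 3 were tested and none was called, where 2.2% of all loci were. The part of these differences in the results was not tested.

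Signalling genes gave mixed values. Of 20 interferon response genes 2 fell, OAS2 among them, and none rose. OAS2, an antiviral RNA sensor, was at 5.82 and 5.28 CPM in WT CITCO and at 8.16 and 8.09 CPM in WT DMSO libraries (log2 -0.51, adjusted p = 0.0039). In a separate list of chemokines and NF-kB genes 1 of 15 fell and none rose, with a median of -0.12. The gene that fell was CXCL10, a chemokine induced by interferons, by 0.66 on the log2 scale from a low level. The OAS2 call was lost without WT CITCO 2 and that of CXCL10 without WT CITCO 1, WT CITCO 2 or WT DMSO 1. None of 16 genes of the unfolded protein response was called, where 2.2% of all loci were. Of 19 p53 targets 1 rose, PHLDA3 (0.37), which lost its call without WT CITCO 1, WT CITCO 2 or WT DMSO 1.

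The receptors and their partners were not called. Of 33 tested loci none passed, where 2.2% of all loci did, although 9 had an unadjusted p under 0.05. NR1I3 itself had a log2 change of -0.29 (adjusted p = 0.104), the PXR gene NR1I2 one of -0.07, RXRA -0.09 and AHR -0.06. NR1I2 was at 29.5 and 27.9 CPM with CITCO and at 30.2 and 30.0 CPM with DMSO. These values do not show that levels stayed the same.

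Among other genes with the largest changes were several outside the lists. TSKU, a secreted leucine-rich protein, was at 448 and 451 CPM in WT CITCO and at 264 and 291 CPM in WT DMSO libraries (log2 0.70, adjusted p = 7.34e-08). CPLX2, a regulator of vesicle fusion, rose by 1.2 to 5.73 and 6.50 CPM, against 2.1 and 2.68 CPM with DMSO. DIO2, which activates thyroid hormone, was at 3.54 and 3.85 CPM with CITCO and at 7.07 and 6.25 CPM with DMSO (log2 -0.77, adjusted p = 0.00328), and was not called without WT CITCO 1. ATP2B2, a calcium pump of the cell membrane, fell by 0.74 on the log2 scale, ADH4, an alcohol dehydrogenase, by 0.47, and PPP1R3C, which targets a phosphatase to glycogen, by 0.45. For these 3 genes every alternative kept the call.

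The WT and the KO response to CITCO were compared by their difference. Loss of CAR and other differences between the WT and the KO line cannot be told apart in it. In KO cells 128 loci were called (0.811%), 61 of them higher (0.386%) and 67 lower (0.424%), and of the 187 loci that rose in WT cells 148 also had a positive change in KO cells and 29 were called higher there. The difference of responses was called for 28 of the 187, and in 27 of these the WT rise was the larger. Of the 161 that fell in WT cells 8 had a called difference, each with the larger fall in WT cells. Over all loci the difference was called for 53, with 36 higher (0.228%) and 17 lower (0.108%), and the count was 491 without WT DMSO 2 and 23 to 46 without any other library. The median log2 change in KO cells was 0.10 over the 187 loci and -0.07 over the 161. These loci were chosen for their change in WT cells, which is also a part of the difference. The lean of the called differences to WT cells and the smaller medians in KO cells are therefore partly set by the choice. KO cells also stood apart in the summed hepatocyte markers, most of which is ALB. The sum was 56068 and 56690.4 CPM with CITCO and 59392 and 57618 CPM with DMSO, and the part of this in the differences was not tested.

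The largest difference was that of CYP2B6, whose log2 change was 3.55 in WT and 0.78 in KO cells (difference 2.78, 95% interval 2.60 to 2.95, adjusted p = 3.52e-13). KO cells held 17.4 and 16.1 CPM of CYP2B6 with CITCO and 10.2 and 8.95 CPM with DMSO, so the KO rise was also called. CYP2A6 rose by 1.2 in WT cells, while its change in KO cells was 0.05, at 116 and 112 CPM with CITCO and 113 and 108 CPM with DMSO (difference 1.16, limma adjusted p = 9.49e-09). For GPX2 the changes were 1.68 in WT and 0.27 in KO cells (difference 1.41, adjusted p = 3.19e-08), and for AKR1B10 1.03 and 0.31 (difference 0.72, adjusted p = 5.07e-08). Of the P450 list 7 of 13 members had a larger response in WT cells by this test, of the NRF2 list 6 of 25 and of the phase II list 3 of 31 (2 to 4 without 1 library), where 0.228% of all loci did.

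Some responses were also called in KO cells, and CYP1A1 had the larger one there. CYP3A4 rose in both, by 1.78 in WT and 1.22 in KO cells, where it was at 2547 and 2544 CPM with CITCO and at 1079.9 and 1101 CPM with DMSO (difference 0.55, adjusted p = 4.93e-06). CYP3A7 rose by 0.85 in WT and 1.04 in KO cells, and ALDH3A1 by 0.95 and 1.16, with no called difference. CYP1A1 rose more in KO cells, by 4.30 against 2.58 in WT cells (difference -1.72, adjusted p = 0.0153). It was at 16.9 and 17.3 CPM in KO CITCO and at 0.268 and 0.540 CPM in KO DMSO libraries, and its difference was not called when any 1 library other than WT DMSO 2 or KO DMSO 2 was left out. PCK1 fell by 0.45 on the log2 scale in WT cells, while in KO cells its change was 0.29 (adjusted p = 0.0539), at 20.3 and 19.5 CPM with CITCO and 15.9 and 16.4 CPM with DMSO (difference -0.74, adjusted p = 0.000877).

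**Figure D5:**
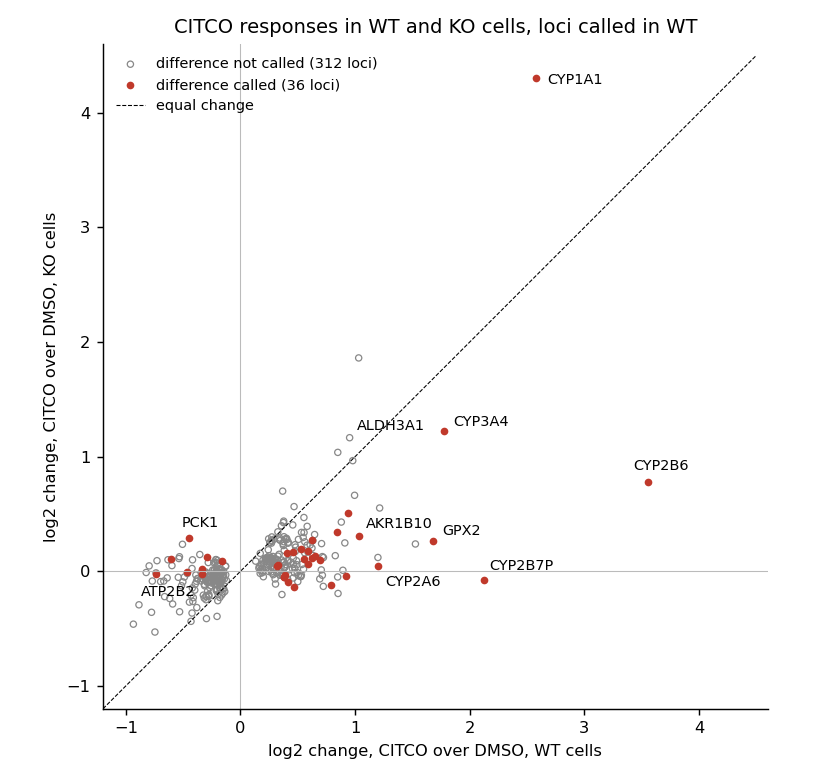
The log2 change of CITCO over DMSO in WT cells (horizontal axis) and in KO cells (vertical axis) for the 348 loci called in WT cells. Red points are the 36 loci whose responses had a called difference, open points the others, and the dashed line marks equal change; CYP2B6, CYP2B7P, GPX2 and CYP2A6 lie far below the line and CYP1A1 above it.

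CITCO and PB were compared directly in WT cells, at doses that are not given and may not match. Levels differed at 992 loci (6.28%), of which 573 were higher (3.63%) and 419 lower (2.65%) with CITCO. With totals as the scale 949 were higher and 250 lower. The count was 377 without WT CITCO 1, 394 without WT CITCO 2, 525 without WT PB 1 and 1215 without WT PB 2. CYP2B6 was at 435 and 424 CPM with CITCO and at 442 and 447 CPM with PB, a log2 difference of -0.05 with a 95% interval of -0.17 to 0.07. CYP3A4 was far lower with CITCO, at 818 and 807 CPM against 4029.7 and 3826 CPM with PB (log2 -2.27, adjusted p = 3.78e-18), and 11 of the 13 members of the P450 list were lower and none higher. GPX2 (-0.19, 95% interval -0.32 to -0.06) and AKR1B10 (-0.01, interval -0.08 to 0.06) were not called.

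CYP1A1 was higher with CITCO than with PB. It was at 10.2 and 9.57 CPM with CITCO and at 2.48 and 2.11 CPM with PB (log2 1.89, adjusted p = 3.31e-05). Of the mitosis genes 33 of 60 were higher with CITCO and none lower, and of the replication genes 13 of 42. The mitosis count was 16 without WT CITCO 1, 13 without WT CITCO 2, 23 without WT PB 1 and 28 without WT PB 2, and the replication count was 6, 7, 8 and 12. Placental alkaline phosphatase (ALPP) was at 34.7 and 32.5 CPM with CITCO and at 13.9 and 15.1 CPM with PB (log2 1.19, adjusted p = 2.06e-08). Of the other alkaline phosphatases ALPPL2 was also higher with CITCO (0.77, limma adjusted p = 0.013). The intestinal form ALPI was lower, at 0.325 and 0.364 CPM with CITCO and 0.888 and 1.3 CPM with PB (log2 -0.91, adjusted p = 0.00652). Unlike ALPP, both lost the call with a constant prior variance and in a fit of only the 6 WT libraries, and ALPI also by edgeR and DESeq2. Of 23 loci of the urea cycle and amino acid catabolism 15 were lower with CITCO and none higher, and the count was 4 without WT CITCO 1, 5 without WT CITCO 2, 8 without WT PB 1, 12 without WT PB 2 and 9 when libraries were scaled to their totals.

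Several called genes lie next to each other on the chromosomes. In the order of genes in RefSeq, 13576 of the 15792 loci could be placed, and 34 of the 179 placed loci that rose (19.0%) had another such locus as their direct neighbour, while 2.38% of the other loci did. Runs were CYP2A6, CYP2B7P and CYP2B6 on chromosome 19, CYP3A7, CYP3A4 and CYP3A43 on chromosome 7, and the transporters SLC47A1 and SLC47A2 with the aldehyde dehydrogenases ALDH3A2 and ALDH3A1 on chromosome 17. Of 156 placed loci that fell 16 (10.3%) had such a neighbour, against 2.16% of the others, among them IGFBP1 with IGFBP3 on chromosome 7 and ADH1A with ADH1B on chromosome 4. Many of these are duplicated genes whose copies may share reads, and their part in these shares was not tested. The genes ALDH3A2, SLC47A2, ADH1A and ADH1B are named for their place only.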

How the data were processed

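Column-purified total RNA was made into standard Illumina libraries, per the labels' protocols. The submitters' processing notes name edgeR 2.12, Cuffdiff 2.1.1, Bowtie 1.0.0, TopHat2 2.0.10 and Cufflinks 2.1.1, with the assemblies GRCh38 and GRCh37, and give no roles. The authors deposited a signal per locus that they call CPM. Column totals run from 900290 to 1113720, so the library sizes carry normalization factors, and every value is a whole number of reads within 0.001 once divided by the value of 1 read. The plan had assumed plain CPM. Loci carry assembled identifiers with gene symbols, and 1 locus can merge overlapping genes.

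The change was computed with limma 3.58.1 (R 4.3.3) on log2(CPM + 0.5), a scale that understates changes of low genes, with a trended prior, 12 libraries, 6 group means and 6 residual degrees of freedom. Adjusted p-values are Benjamini-Hochberg over 15792 loci, called under 0.05, and come from limma where no tool is named. Count models (edgeR 4.0.16 and DESeq2 1.42.0) ran on the reads recovered from the 6 WT libraries. Alternatives were the pseudocount, the filter, scaling to totals, a constant prior, a replicate block, smaller fits and leaving out each library. The procedure was tested on simulated data. Replicate numbers were not used to pair libraries in the main fit. Over all loci, r between the duplicate differences was -0.0384 for WT CITCO and WT DMSO and 0.113 for KO CITCO and KO DMSO. These values cannot show that the libraries were unpaired.

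Members, the 36 gene lists and tests were chosen with earlier results of these data known. Named genes were all members of the receptor, P450, AhR, NRF2 and alkaline phosphatase lists, 17 single genes, up to 20 loci a direction (10 for the other comparisons) ranked by size of change among those called, with a group mean of 5 CPM or more, and up to 8 called members a direction of each other list. Genes outside this rule are said to be so, and some genes that the rule names are not reported here. Sequences are from RefSeq (GRCh38.p14), not from the reads.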

Additional observations from a re-analysis of the deposited data

Results flagged for a closer look

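The response to CITCO differed between WT and KO cells, by limma's test of the difference (adjusted p under 0.05), for 36 named loci. The values below are the log2 response in WT minus that in KO cells. The larger responses in WT cells were those of CYP2B6 (2.78), CYP2B7P (2.20), GPX2 (1.41), CYP2A6 (1.16), AKR1B10 (0.72), TSKU (0.60), CYP3A4 (0.55), SRXN1 (0.52), TRIM16L (0.52), AKR1C2 (0.50), POR (0.45), CYP2C8 (0.43), UGT2B4 (0.41), EPHX1 (0.33), AKR1C1 (0.29) and UGDH (0.27). With each library left out in turn, CYP2B6, CYP2B7P, GPX2, CYP2A6 and AKR1B10 stayed called, as they did under the other alternatives, while UGDH was lost without any 1 library except WT DMSO 2, and CYP2C8 without KO CITCO 1. The remaining 9 of these 16 genes lost the call with a constant prior variance and in no other alternative.

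Negative differences were those of CYP1A1 (-1.72), CCDC144CP (-0.97), SWT1 (-0.81), PCK1 (-0.74), ATP2B2 (-0.71), HLA-K (-0.71), ANKRD36 (-0.66), RMDN2-AS1 (-0.54), ADH4 (-0.47), MBNL3 (-0.45), AFM (-0.35) and FGB (-0.25). CCDC144CP, SWT1, ANKRD36, MBNL3 and RMDN2-AS1 were not called in WT cells alone. Of 16 alternatives, mostly with 1 library left out, CCDC144CP and MBNL3 lost the call in 11, SWT1 in 10, AFM in 9, CYP1A1, FGB and HLA-K in 7, ATP2B2 and ANKRD36 in 6, RMDN2-AS1 in 4, and PCK1 and ADH4 in 1, that with a constant prior variance.

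The remaining 8 are loci that share the symbol RNA5-8S5, copies of the 5.8S ribosomal RNA gene that may share reads and so count as 1 observation, with differences of 1.82, 1.81, 1.8, 1.8, 1.8, 1.8, 1.79 and 1.78. None was called in WT cells. The locus with the largest difference was at 6.47 and 7.71 CPM in WT CITCO, 4.91 and 5.66 CPM in WT DMSO, 3.20 and 4.56 CPM in KO CITCO and 9.75 and 12.9 CPM in KO DMSO libraries.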

How the results depend on the processing

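Of 132 named genes called for CITCO against DMSO in WT cells, 35 stayed called under all 15 alternatives and 2 more under the 14 that gave them a value (the filter at a mean of 5 CPM left them out), and no called value changed sign. The count of 348 was 96 with a constant prior variance, 72 when the fit held the 4 compared libraries alone, 94 with only the 6 WT libraries, 137 by edgeR and 221 by DESeq2 on the recovered reads, and all of these 72 and 136 of the 137 were also called in the fit of all libraries. Leaving out 1 library at a time gave 109 to 992. The difference of the responses in WT and KO cells, 53 loci, was 6 with a constant prior variance and 23 to 491 with 1 library left out. CITCO against PB, 992 loci, was 434 with a constant prior variance, 437 with the 4 compared libraries alone, 380 with only the 6 WT libraries, 500 by edgeR, 624 by DESeq2 and 377 to 1215 with 1 library left out. With replicate numbers as a block the counts were 367, 51 and 951. The cause of these shifts was not tested, except that fewer libraries leave fewer degrees of freedom. Scaling to totals moved the median change of all loci by under 0.1 and gave the split of 250 higher and 100 lower loci. With 2 libraries in each group, 2578 loci had an unadjusted p under 0.05 and 348 passed the adjustment.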

Other observations

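Genes outside the lists and chosen after their values were seen add to the picture of the CITCO response in WT cells. The calls of these genes, rises and falls alike, were not followed under the alternatives. NFE2L2, which encodes NRF2, was at 68.4 and 69.4 CPM in WT CITCO and at 59.4 and 54.8 CPM in WT DMSO libraries (log2 0.27, limma adjusted p = 0.00767), with a change of 0.25 in KO cells. CES1, the main liver carboxylesterase, was at 4657 and 4607 CPM with CITCO and at 3936 and 3946 CPM with DMSO (0.23, adjusted p = 0.00025). CYB5A, cytochrome b5, which donates electrons to some P450 enzymes, rose by 0.41, PTGR1, a reductase of reactive enals, by 0.27, and ALDH1L1, a folate enzyme, by 0.38. CXCL13, a chemokine, was at 557 and 541 CPM with CITCO and at 418 and 377 CPM with DMSO (0.47). It is not typical of its kind, as all 15 tested members of the list of chemokines and NF-kB genes had a negative change.

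Among genes that fell, NDRG1, a stress-response protein, was at 286 and 293 CPM in WT CITCO and at 382 and 395 CPM in WT DMSO libraries (log2 -0.42, adjusted p = 1.11e-06). EGLN3, a prolyl hydroxylase (-0.42), CA9, a carbonic anhydrase (-0.32), P4HA1 and PLOD2, which hydroxylate collagen (-0.38 and -0.33), PDK1, which blocks pyruvate dehydrogenase (-0.37), and BNIP3 (-0.21) also fell. In KO cells NDRG1 changed by -0.36, EGLN3 by -0.26 and CA9 by -0.23 on the log2 scale. None of these 7 genes had a called difference between genotypes, where 0.336% of all loci did, so this does not show equal responses.

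At 13 loci the change in WT cells was over 2-fold without being called, and at each of them the duplicates of 1 group differed more than 2-fold. SERPINA2, for example, was at 0.217 and 31.5 CPM in the WT CITCO libraries and at 0.245 and 0.419 CPM in the WT DMSO libraries.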
